A study of Mus musculus with 12 samples.

Results

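The genes described here are a written list of 50 type I interferon-stimulated genes, that is, genes switched on in most mouse cells by interferon-α and interferon-β. Of the 50 genes, 46 had a probe set annotated with that gene alone, out of 22180 genes measured in this way, and where a gene had several the one with the highest mean signal over all arrays was read. Ifi203, Dtx3l and Gbp2 shared their probe sets with other genes and Ifi44 had no probe set listed for it, so these 4 genes are not part of any count below. The cells were LSK cells, the lineage-negative bone marrow cells with Sca1 and Kit on their surface that hold haematopoietic stem cells and multipotent progenitors. They were sorted from C57BL/6 mice, were not cultured, and were profiled on 12 Affymetrix arrays. The 4 groups of 3 arrays were Mll5-/- mice given NAC, Mll5+/+ mice given NAC, Mll5-/- mock mice and Mll5+/+ mock mice, called mutant and wild type from here on. Mll5, now named Kmt2e, encodes a chromatin regulator, and the mutant mice were bred from Mll5+/- parents, so that the loss was not limited to blood cells. NAC, N-acetyl-L-cysteine, is a thiol compound that quenches reactive oxygen species. It was given at 1 g per liter of drinking water from the mating of the parents, through pregnancy and for the whole life of the offspring, while mock mice went without it. The sources used here give neither ages nor the number of mice behind an array.

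Type I interferons bind a receptor made of IFNAR1 and IFNAR2, whose kinases JAK1 and TYK2 activate the complex ISGF3. It contains STAT2 and IRF9 and binds the interferon-stimulated response element in the promoters of its target genes. The targets block viral entry, translation and replication, sense foreign RNA and DNA, or amplify or end the response itself. In bone marrow, interferon-α drives quiescent stem cells into cycle, and lasting exposure impairs their function. It also raises Sca1, the surface protein by which the cells were gated here, so that the sort itself depends on an interferon-inducible protein. The series title places IFN-1 signalling upstream of reactive oxygen species in stem and progenitor cells with DNA damage, and the design asks whether loss of Mll5, and NAC in each genotype, came with other transcript levels in these cells.

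The promoters of many listed genes hold the response element. RefSeq windows of the build GRCm38.p6, from 250 bases before to 50 after each gene's start, were at hand for 38 of the 50 genes. They were searched on both strands for the core GAAANNGAAA of the response element. The core was present in any window of 19 of the 38 genes, against 1079 of all 27025 genes with a window (3.99%). Genes with 2 or more matches in a window, overlapping ones included, made up 8 of the 38 (21.1%) and 72 of the 27025 (0.266%). The stretches below belong to the 4 genes with the most matches, ranked by signal among equal counts, and are shown because they hold the element through which ISGF3 is known to act. Each runs from up to 30 bases before the first match to up to 20 after the last, is written 5′ to 3′ on the gene's strand, and has the bases of the matches in capitals. Coordinates are those of the whole window.
Isg15 (chr4:156200769-156201068, minus strand): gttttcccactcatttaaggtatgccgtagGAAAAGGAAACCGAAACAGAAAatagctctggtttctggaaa
Ifitm3 (chr7:141010695-141010994, minus strand): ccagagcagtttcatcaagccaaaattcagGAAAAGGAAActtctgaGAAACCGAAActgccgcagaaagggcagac
Bst2 (chr8:71537423-71537722, minus strand): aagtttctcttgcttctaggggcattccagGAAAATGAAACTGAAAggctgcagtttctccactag
Irgm1 (chr11:48871371-48871670, minus strand): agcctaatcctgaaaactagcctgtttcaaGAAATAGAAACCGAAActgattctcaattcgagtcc
Isg15 held 3 overlapping matches, the first of which began 78 bases before the start. Bst2 had 2 overlapping matches from 130 bases before the start and Irgm1 had 2 from 30 bases before it. In Ifitm3 the 2 matches lay apart from each other and just after the start. A match describes these letters only and is no measure of binding.

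The deposited values are log2 signals, so a difference of 1 is a 2-fold change. The arrays had medians of 2.89 to 2.96 and pairwise correlations of 0.976 to 0.988 across genes. The arrays that stood apart were mutant NAC replicate 1, with an estimated weight of 0.541, and wild-type mock replicate 1, with one of 0.71. Kmt2e, the targeted gene, gave 7.02, 7.33 and 7.01 in mutant NAC cells, 7.37, 7.78 and 7.50 in wild-type NAC cells, 7.51, 7.38 and 6.93 in mutant mock cells and 7.49, 7.39 and 7.68 in wild-type mock cells, and the sources used here do not place its probe set relative to the deleted part. Differences were tested with limma on all arrays, with p-values adjusted by Benjamini-Hochberg over the 22180 genes and a threshold of 0.05. Since no label states that the arrays of a group are separate mice, p-values reflect only the spread between these arrays, which could be technical. In sorted but mixed cells, a lower signal from fewer cells of a type and one from less RNA per cell cannot be told apart. The number of arrays limits the precision: over the 46 genes the median standard error of a difference between 2 groups was 0.19, and the median 95% interval reached 0.41 to either side.

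The signals of the interferon-stimulated genes covered most of the range of the arrays, and signals of different probe sets do not rank genes by transcript number. The 5 highest means over the 12 arrays were those of Ly6e at 11.57, Ifitm3 at 10.34, Ifitm2 at 9.86, Lgals3bp at 9.41 and Ifi27 at 8.59. The 5 lowest were those of Ifi204 at 2.04, Mx1 at 2.40, Mx2 at 2.57, Ifitm1 at 3.44 and Cxcl10 at 3.92. Ifi204, Mx1 and Mx2 lay below 3.17, the median level of all genes. The remaining 43 lay above it.

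None of the 46 interferon-stimulated genes passed the test between mutant and wild-type cells, in mock or with NAC. In mock cells 19 genes had a higher and 27 a lower mean in the mutant, with a median log2 difference of -0.06, against 0.00 over all genes. With NAC the counts were 17 higher and 28 lower, with 1 at no difference and a median of -0.07, against 0.01 over all genes. The smallest adjusted p of any member was 0.683 in mock and 0.529 with NAC. Over all genes the test called 0.00902% in mock, 0.0% with NAC and 0.00902% over both treatments, so the arrays gave few calls anywhere.

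An unadjusted p under 0.05 for genotype in mock was found for 4 of the 46 genes, a share of 8.7% against 6.63% of all genes. With NAC there were 3, or 6.52% against 7.17%. Over both treatments together there were again 3, or 6.52% against 9.08%, with 16 genes higher, 29 lower and a median of -0.06. These shares are near the background. Of genes at or above the median level, where most members lay, 8.64% had such a p in mock, 9.57% with NAC and 13.1% over both treatments. The arrays of the genotypes did not overlap for 5 genes in mock, or 10.9% against 11.4% of all genes, and for 11 with NAC, or 23.9% against 12.4%. Of genes at or above the median level, the arrays did not overlap for 11.8% in mock and 14.5% with NAC. Of the 11 members with NAC, 6 were higher in the mutant, Eif2ak2, Gbp7, Ifi27, Ifitm1, Ifitm3 and Trim30a. The other 5, Cmpk2, Epsti1, Ifit3, Isg15 and Trim25, were lower. The 2 genotype comparisons share no arrays. In both, 17 genes were lower in the mutant (37.0%, against 26.8% of all genes) and 7 were higher (15.2%, against 28.4%). Genes of an array can move together, so these counts are not independent observations. In no member did all 6 mutant arrays lie apart from all 6 wild-type arrays. The 95% intervals over both treatments lay within 2-fold for all 46 genes, and for 41 and 42 genes in mock and with NAC alone. Without the 2 arrays that stand apart, the median was -0.09 in mock and -0.02 with NAC, again with no gene called.

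NAC against mock gave no call among the 46 genes either, in mutant or in wild-type cells. Over both genotypes 35 of 46 had a lower mean with NAC and 11 a higher one. That is 76.1% lower, against 50.2% of all genes. The median log2 difference was -0.15 over both genotypes, -0.13 in the mutant and -0.16 in wild type, while all genes had medians of 0.00 in each. The smallest adjusted p was 0.478 over both genotypes, 0.779 in the mutant and 0.686 in wild type. Of all genes the test called 0.00451%, 0.00451% and 0.00902% in these 3 comparisons.

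The mean signal of the 46 genes was 5.61, 5.70 and 5.63 in mutant NAC arrays, 5.67, 5.79 and 5.63 in wild-type NAC arrays, 5.84, 5.61 and 5.86 in mutant mock arrays and 5.72, 5.82 and 5.90 in wild-type mock arrays. The groups overlapped, since mutant mock replicate 2 was as low as the NAC arrays and wild-type NAC replicate 2 was within the mock range. NAC was compared on separate arrays in the 2 genotypes. In both of them 27 genes were lower with NAC (58.7%, against 26.8% of all genes), and 4 were higher (8.7%, against 26.1%). These 4 were Irf7, Mx2, Bst2 and Cxcl10. In single arrays 17 to 37 of the 46 genes lay above their own mean over all arrays. Genes of an array can thus move together, and these counts are not independent observations. For NAC over both genotypes 7 genes had an unadjusted p under 0.05, or 15.2% against 7.43% of all genes. They were Oas2, Rtp4, Xaf1, Samd9l and Lgals3bp on the lower side and Mx2 and Bst2 on the higher. In the mutant alone there were 4, or 8.7% against 5.86%, and in wild type alone 7, or 15.2% against 5.92%. Of genes at or above the median level, where most members lay, 11.3% had such a p over both genotypes. That share was 8.32% in the mutant and 7.58% in wild type. Arrays with and without NAC did not overlap for 6 genes in the mutant, or 13% against 10.2% of all genes. In wild type they did not overlap for 5, or 10.9% against 10.7%. In no member did all 6 NAC arrays lie apart from all 6 mock arrays. The 95% intervals lay within 2-fold for 44 of the 46 genes over both genotypes. Without the 2 arrays that stand apart, 34 genes were lower over both genotypes, with a median of -0.13. In the mutant alone 29 were then lower, with a median of -0.09, where all arrays gave 36 and -0.13. In wild type alone 32 were lower, with a median of -0.18, where all arrays gave 33 and -0.16.

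Markers of LSK cells and of other cell types also had other levels in NAC than in mock arrays. Of 9 LSK markers, all had lower means with NAC over both genotypes, with a median of -0.32, and the mean of the list per array ran 6.76 to 7.10 in mutant NAC, 7.12 to 7.18 in wild-type NAC, 7.24 to 7.42 in mutant mock and 7.15 to 7.59 in wild-type mock cells. Monocyte and macrophage markers were higher in 7 of 9, with a median of 0.41, at 5.96 to 6.00 in mutant NAC, 5.95 to 6.12 in wild-type NAC, 5.40 to 6.14 in mutant mock and 5.45 to 5.87 in wild-type mock cells. Neutrophil markers were higher in 6 of 9, with a median of 0.16, at 5.08 to 5.51 in mutant NAC, 5.52 to 5.66 in wild-type NAC, 4.48 to 5.21 in mutant mock and 5.20 to 5.62 in wild-type mock cells. Markers of plasmacytoid dendritic cells, a main source of type I interferon, were higher in 6 of 8, with a median of 0.25, at 4.58 to 4.71 in mutant NAC, 4.64 to 5.15 in wild-type NAC, 4.19 to 4.43 in mutant mock and 4.63 to 4.86 in wild-type mock cells. Erythroid markers were higher in 3 of 4. List means with NAC against mock were 3.57 against 3.66 in the mutant and 3.97 against 3.85 in wild type for B cell markers. Megakaryocyte markers gave 5.55 against 5.47 and 4.83 against 4.93, and T and NK cell markers 2.48 against 2.46 and 2.50 against 2.54. All 8 T and NK cell markers lay below the median gene level in every group, as did 5 of 9 neutrophil markers. By group, 2 to 4 of 7 B cell markers and 3 to 4 of 8 plasmacytoid dendritic cell markers lay below it. So did 1 to 2 of 9 monocyte and macrophage markers. For genotype over both treatments, all 6 megakaryocyte markers were higher in the mutant, with a median of 0.52, while all 9 neutrophil markers and all 7 B cell markers were lower, with medians of -0.18 and -0.25. List means of LSK markers were also lower in the mutant, at 7.31 against 7.40 in mock and 6.99 against 7.14 with NAC. For plasmacytoid dendritic cell markers they were 4.30 against 4.71 and 4.64 against 4.86. T and NK cell markers gave 2.46 against 2.54 and 2.48 against 2.50. Erythroid markers were higher in the mutant, at 4.879 against 4.795 and 5.38 against 5.06. Monocyte and macrophage markers gave 5.77 against 5.61 and 5.98 against 6.05. Of the markers in these lists, Selp, the platelet adhesion receptor P-selectin, was the only one to pass the test in any comparison, at 1.48 (SE 0.18, adjusted p = 0.0269) for genotype over both treatments. Ly6a, which encodes Sca1, had no probe set of its own. The part of these markers in the differences of the interferon-stimulated genes was not tested.

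**Figure D1:**
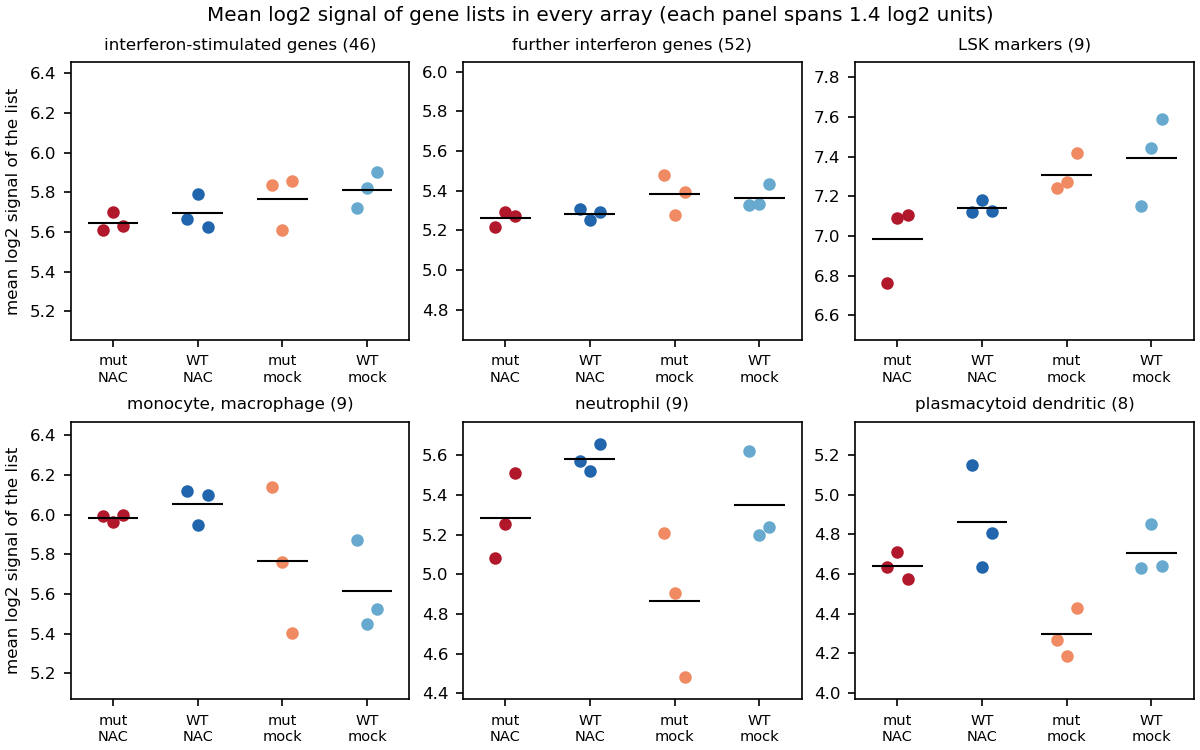
Mean log2 signal of 6 gene lists in each of the 12 arrays (points) and the mean of each group (lines), each panel spanning 1.4 units. The 46 interferon-stimulated genes and the 52 further interferon genes shift little between groups, while LSK markers are lower and monocyte and macrophage markers higher in NAC than in mock cells on average.

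**Figure D2:**
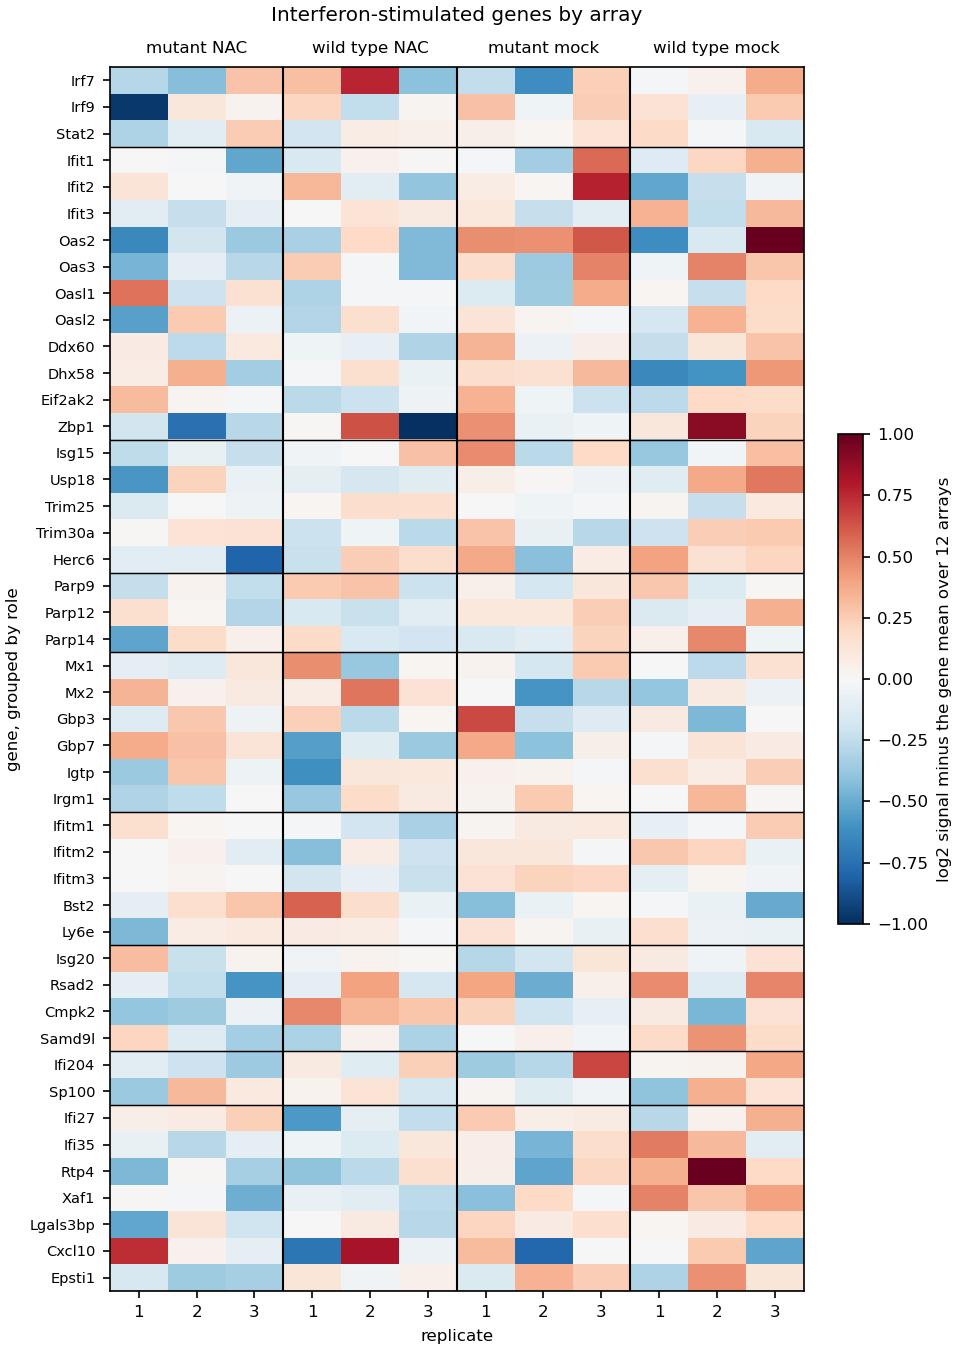
Log2 signal of each of the 46 genes (rows, grouped by role) in each of the 12 arrays (columns, 3 replicates per group), drawn as the deviation from the gene's mean over all arrays, with colours capped at 1 to either side. Blue is more common in the NAC columns on the left and red in the mock columns on the right, with wide scatter within groups, as for Zbp1, Cxcl10 and Oas2.

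**Figure D3:**
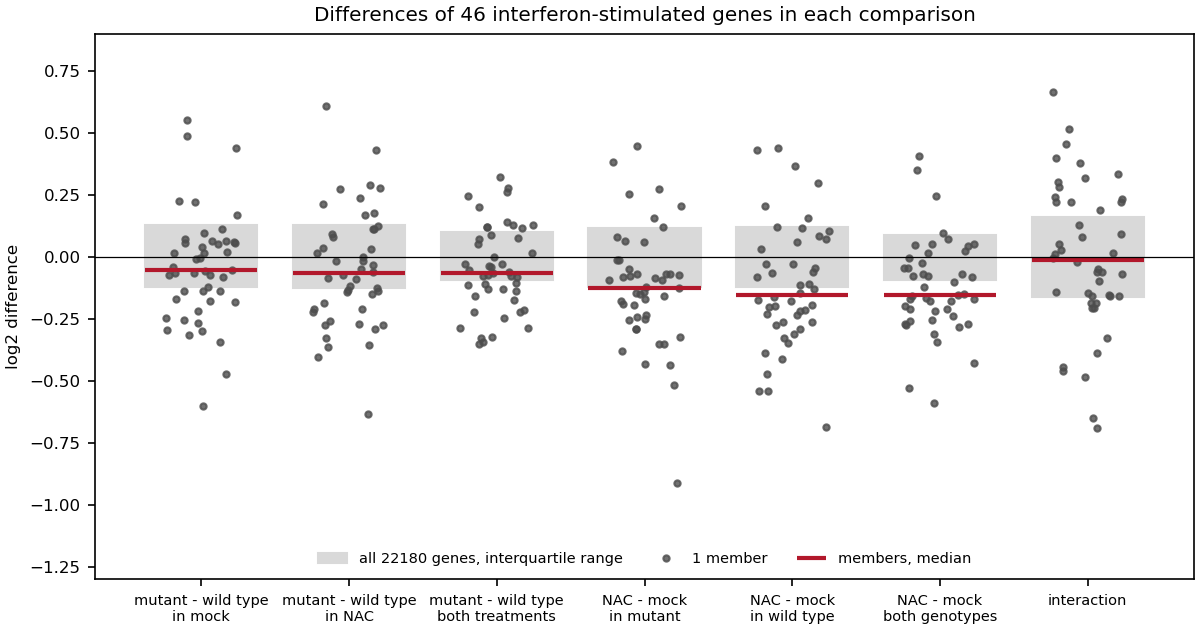
Log2 difference of each of the 46 genes (points) in the 7 comparisons, with the median of the genes (red line) and the interquartile range of all 22180 genes (grey band). The medians of the 3 comparisons of NAC with mock lie between -0.16 and -0.12, below those of the genotype comparisons, and no point passed the test.

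Of the transcription factors of the response, Stat2 and Irf9 are parts of ISGF3, and Irf7 amplifies interferon production. Stat2 had log2 signals of 5.22, 5.42 and 5.79 in mutant NAC cells, 5.34, 5.61 and 5.58 in wild-type NAC cells, 5.59, 5.55 and 5.67 in mutant mock cells and 5.72, 5.52 and 5.38 in wild-type mock cells. Irf9 had 4.80, 5.88 and 5.80 in mutant NAC cells, 5.98, 5.52 and 5.79 in wild-type NAC cells, 6.06, 5.72 and 6.01 in mutant mock cells and 5.91, 5.68 and 6.03 in wild-type mock cells. Irf7 had 5.03, 4.89 and 5.60 in mutant NAC cells, 5.62, 6.08 and 4.91 in wild-type NAC cells, 5.07, 4.70 and 5.56 in mutant mock cells and 5.31, 5.36 and 5.69 in wild-type mock cells. Stat2 and Irf9 overlapped between all groups, and mutant NAC replicate 1, one of the arrays that stand apart, was the lowest for both. Irf7 varied more among the 3 wild-type NAC arrays than between the means of any groups. The 3 differences lay at -0.35 to 0.02 for genotype over both treatments and at -0.27 to 0.07 for NAC over both genotypes.

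The 11 genes of RNA binding and sensing of double-stranded RNA were mostly lower with NAC, 9 of 11 in mutant and 9 of 11 in wild-type cells, with medians of -0.19 and -0.18, and none passed the test. Oas2, an enzyme that makes 2′-5′-linked oligoadenylates and so activates RNase L, had log2 signals of 4.95, 5.41 and 5.22 in mutant NAC cells, 5.27, 5.79 and 5.15 in wild-type NAC cells, 6.06, 6.05 and 6.21 in mutant mock cells and 4.97, 5.44 and 6.59 in wild-type mock cells. In the mutant the 3 NAC arrays lay below the 3 mock arrays, while in wild type they overlapped. The log2 difference of NAC against mock was -0.91 (SE 0.32, adjusted p = 0.779) in the mutant, with a 95% interval of -1.60 to -0.23, and -0.26 (SE 0.32, adjusted p = 0.946) in wild type. It was the member with the largest difference in any of the comparisons, and wild-type mock replicate 3 alone held the highest of its signals.

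Ifit1 and Ifit3 belong to a family of RNA-binding proteins that block translation of foreign RNA. Ifit3 has a close copy, Ifit3b, which has a probe set of its own with a mean of 2.86. Whether the probe set of Ifit3 also detects Ifit3b was not tested. Ifit1 had 4.64, 4.63 and 4.12 in mutant NAC cells, 4.49, 4.68 and 4.65 in wild-type NAC cells, 4.62, 4.29 and 5.21 in mutant mock cells and 4.51, 4.85 and 5.0 in wild-type mock cells. Ifit3 had 5.26, 5.14 and 5.28 in mutant NAC cells, 5.38, 5.51 and 5.46 in wild-type NAC cells, 5.48, 5.14 and 5.27 in mutant mock cells and 5.72, 5.13 and 5.70 in wild-type mock cells. Ifit1 overlapped between all groups, and Ifit3 was lower in every mutant NAC array than in every wild-type NAC array, at a difference of -0.22 (SE 0.16, adjusted p = 0.809). Ifit2, of the same family, had 4.92, 4.79 and 4.75 in mutant NAC cells, 5.12, 4.68 and 4.39 in wild-type NAC cells, 4.86, 4.81 and 5.56 in mutant mock cells and 4.27, 4.56 and 4.75 in wild-type mock cells. All mutant mock arrays lay above all wild-type mock arrays, at 0.55 (SE 0.22, adjusted p = 0.721), and mutant mock replicate 3 stood highest. Eif2ak2, the kinase PKR that halts translation on binding double-stranded RNA, had 5.99, 5.70 and 5.66 in mutant NAC cells, 5.40, 5.46 and 5.62 in wild-type NAC cells, 6.02, 5.63 and 5.46 in mutant mock cells and 5.41, 5.87 and 5.86 in wild-type mock cells. Under NAC its mutant arrays lay above its wild-type arrays, at 0.29 (SE 0.17, adjusted p = 0.772), and in mock they overlapped. Of the remaining genes of this role, Oas3, Oasl1, Oasl2, Ddx60, Dhx58 and Zbp1, the differences of NAC over both genotypes ranged from -0.53 for Zbp1, a sensor of left-handed nucleic acids, to 0.05 for Dhx58, a helicase related to RIG-I.

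Of the ISG15 system and ubiquitin ligases, 4 of 5 measured genes had lower means with NAC in the mutant and 3 of 5 in wild type. Isg15, a ubiquitin-like protein joined to other proteins after interferon, had 3.77, 3.95 and 3.80 in mutant NAC cells, 3.99, 4.03 and 4.32 in wild-type NAC cells, 4.50, 3.76 and 4.23 in mutant mock cells and 3.65, 4.0 and 4.33 in wild-type mock cells. Under NAC the mutant arrays were below the wild-type arrays, at -0.27 (SE 0.20, adjusted p = 0.817), while in mock both genotypes spread widely and overlapped. Usp18, the protease that removes ISG15 and damps signalling at IFNAR2, had 3.99, 4.79 and 4.50 in mutant NAC cells, 4.48, 4.40 and 4.45 in wild-type NAC cells, 4.63, 4.58 and 4.52 in mutant mock cells and 4.45, 4.95 and 5.10 in wild-type mock cells. Its groups overlapped in each comparison of genotypes or treatments, and mutant NAC replicate 1 was lowest. Herc6, the mouse ISG15 ligase, and Trim25 and Trim30a, both ubiquitin ligases, made up the rest, and the differences of the 5 genes were -0.33 to 0.08 for genotype and -0.27 to 0.05 for NAC, each averaged over the other factor.

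The ADP-ribosyltransferases Parp9, Parp12 and Parp14 had lower means with NAC in the mutant in 3 of 3 and in wild type in 2 of 3. Their signals lay between 4.88 and 6.41, and their NAC differences over both genotypes were -0.20 to -0.04. None of their groups was set apart in the comparisons.

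Among the dynamin-like and immunity-related GTPases, Mx2 and Gbp7 gave the larger differences, in unlike comparisons. Mx1 and Mx2 are antiviral dynamin relatives, and laboratory strains such as C57BL/6 carry a defective Mx1 allele. Mx1 had 2.30, 2.27 and 2.51 in mutant NAC cells, 2.86, 2.02 and 2.42 in wild-type NAC cells, 2.43, 2.22 and 2.66 in mutant mock cells and 2.40, 2.14 and 2.55 in wild-type mock cells, below the median gene in every array, and its groups overlapped. Mx2 had 2.91, 2.61 and 2.66 in mutant NAC cells, 2.64, 3.10 and 2.71 in wild-type NAC cells, 2.57, 1.98 and 2.29 in mutant mock cells and 2.18, 2.66 and 2.51 in wild-type mock cells. Mx2 was higher with NAC in both genotypes, at 0.45 (SE 0.18, adjusted p = 0.829) in the mutant, where the arrays did not overlap, and at 0.37 (SE 0.18, adjusted p = 0.865) in wild type, where they did. Its signal too was below the median gene level. Gbp7, one of the guanylate-binding proteins, which attack vacuoles that hold pathogens, had 6.32, 6.24 and 6.08 in mutant NAC cells, 5.40, 5.83 and 5.58 in wild-type NAC cells, 6.33, 5.54 and 6.01 in mutant mock cells and 5.94, 6.08 and 6.03 in wild-type mock cells. Under NAC every mutant array was above every wild-type array, at 0.61 (SE 0.18, adjusted p = 0.56), or 1.53-fold higher. In mock the genotypes overlapped, at -0.06 (SE 0.18, adjusted p = 0.976). In wild type Gbp7 was lower with NAC, at -0.41 (SE 0.18, adjusted p = 0.838), with no overlap, and this contrast shares the wild-type NAC arrays with the one before. Gbp3, Igtp and Irgm1, the last 2 being GTPases that act on vacuoles with pathogens, had differences of 0.02, -0.18 and -0.22 for NAC over both genotypes. In Irgm1 all mutant NAC arrays were below all mutant mock arrays.

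Among the membrane restriction factors, 4 of 5 had lower means with NAC over both genotypes, and none passed the test. Ifitm3, which blocks fusion of viruses with endosomes, had 10.34, 10.36 and 10.34 in mutant NAC cells, 10.15, 10.25 and 10.11 in wild-type NAC cells, 10.48, 10.56 and 10.54 in mutant mock cells and 10.24, 10.36 and 10.30 in wild-type mock cells. Mutant arrays were above wild-type arrays both in mock, at 0.23 (SE 0.10, adjusted p = 0.744), and with NAC, at 0.18 (SE 0.10, adjusted p = 0.764). Over both treatments the difference was 0.20 (SE 0.07, adjusted p = 0.423), with a 95% interval of 0.04 to 0.36, which is 1.15-fold. It had the smallest adjusted p of the members for genotype. The mutant arrays with NAC overlapped the wild-type mock arrays, so the 6 arrays of each genotype did not separate. With NAC, Ifitm3 was lower in the mutant without overlap, at -0.18 (SE 0.10, adjusted p = 0.897).

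Bst2, or tetherin, which holds budding virions at the cell surface, had 7.64, 7.90 and 8.01 in mutant NAC cells, 8.32, 7.91 and 7.67 in wild-type NAC cells, 7.31, 7.67 and 7.75 in mutant mock cells and 7.71, 7.67 and 7.23 in wild-type mock cells. It was higher with NAC, at 0.43 (SE 0.19, adjusted p = 0.843) in wild type and 0.27 (SE 0.19, adjusted p = 0.919) in the mutant, and NAC and mock arrays overlapped in both. Ifitm1, Ifitm2 and Ly6e, a membrane-anchored relative of Sca1 in the Ly6 family, had NAC differences of -0.12, -0.21 and -0.05 over both genotypes. Ly6e ranged over the 12 arrays from 11.12 to 11.73.

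**Figure D4:**
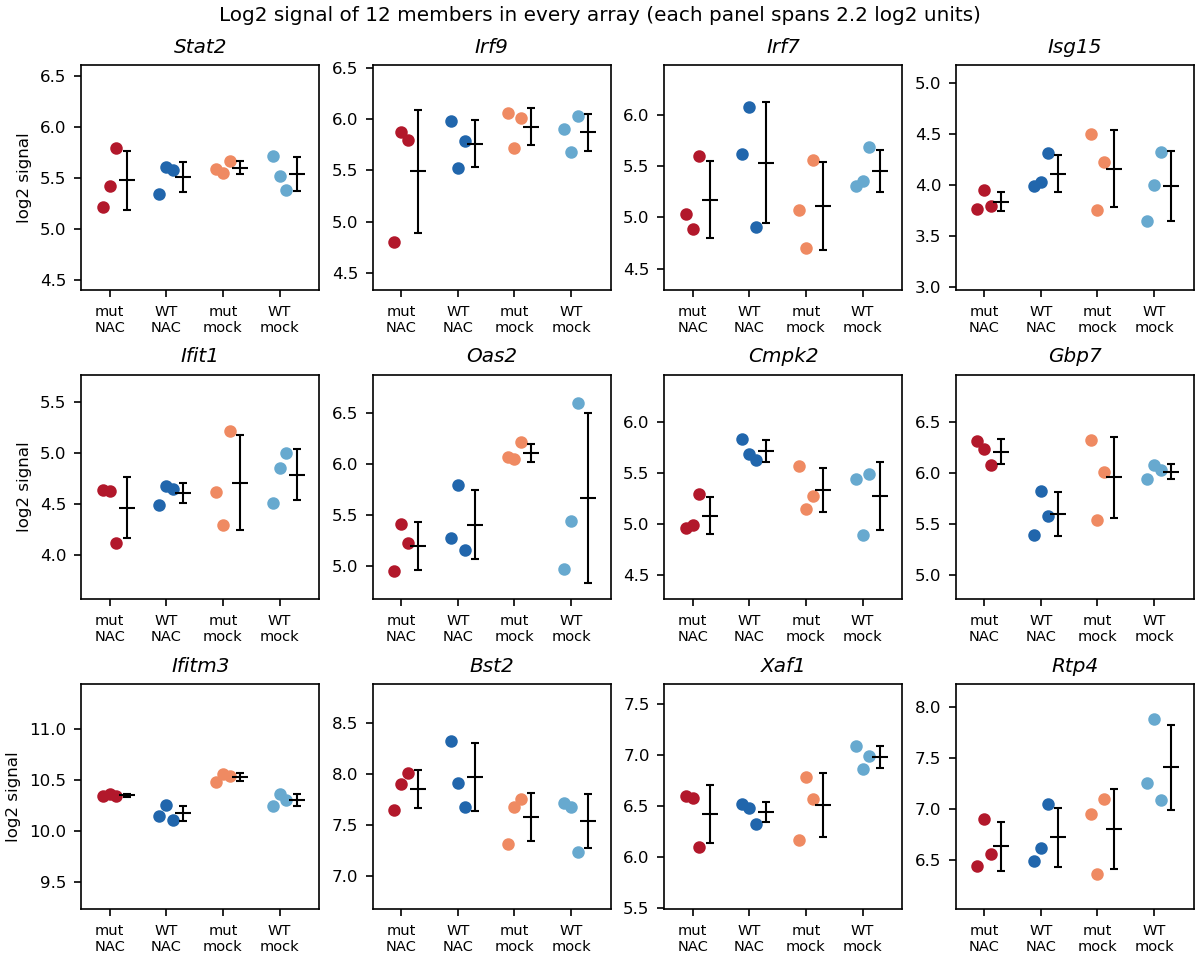
Log2 signal (vertical axes, each spanning 2.2 units) of 12 genes in the 12 arrays, as points, with the mean and SD of each group beside them (n = 3). Cmpk2 and Gbp7 separate the genotypes with NAC and overlap in mock, Ifitm3 is higher in mutant than in wild-type cells under both treatments, and the means of Xaf1 and Rtp4 are highest in wild-type mock cells.

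Of the nucleotide and nucleic acid effectors, Cmpk2, a mitochondrial nucleotide kinase, had 4.96, 4.99 and 5.29 in mutant NAC cells, 5.83, 5.68 and 5.63 in wild-type NAC cells, 5.57, 5.15 and 5.27 in mutant mock cells and 5.44, 4.89 and 5.49 in wild-type mock cells. Under NAC it was lower in every mutant array than in every wild-type array, at -0.63 (SE 0.17, adjusted p = 0.529), or 1.55-fold lower, and in mock the difference was 0.06 (SE 0.17, adjusted p = 0.976) with overlap. In wild type it was higher with NAC without overlap, at 0.44 (SE 0.17, adjusted p = 0.804), again on the same wild-type NAC arrays. Rsad2, or viperin, which makes a chain-terminating nucleotide, had 4.13, 3.97 and 3.63 in mutant NAC cells, 4.13, 4.62 and 4.05 in wild-type NAC cells, 4.61, 3.72 and 4.27 in mutant mock cells and 4.69, 4.09 and 4.71 in wild-type mock cells. Its groups overlapped, and the difference between genotypes with NAC was -0.36 (SE 0.24, adjusted p = 0.803). Samd9l, a restrictor of poxvirus whose human gene is mutated in inherited marrow failure, had 5.34, 5.0 and 4.79 in mutant NAC cells, 4.81, 5.17 and 4.81 in wild-type NAC cells, 5.13, 5.18 and 5.10 in mutant mock cells and 5.32, 5.58 and 5.31 in wild-type mock cells. In wild type all NAC arrays were below all mock arrays, at -0.47 (SE 0.16, adjusted p = 0.713), and in mock all mutant arrays were below all wild-type arrays, at -0.27 (SE 0.16, adjusted p = 0.827). Isg20, an exonuclease, had differences of -0.07 for genotype and 0.05 for NAC averaged over the other factor.

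Of the DNA-sensing and nuclear body proteins, Sp100, a component of PML bodies, had signals of 6.85 to 7.61 over the 12 arrays and a NAC difference of 0.02 over both genotypes. Ifi204, a DNA-binding protein of the PYHIN family, had signals of 1.68 to 2.71, with a difference of -0.16.

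Of the 7 further members, 6 had lower means with NAC in the mutant and 6 in wild type, and none passed the test. Xaf1, an inhibitor of the caspase inhibitor XIAP, had 6.60, 6.58 and 6.10 in mutant NAC cells, 6.52, 6.48 and 6.33 in wild-type NAC cells, 6.17, 6.79 and 6.57 in mutant mock cells and 7.09, 6.87 and 6.99 in wild-type mock cells. All wild-type mock arrays lay above all other groups. The difference of NAC against mock in wild type was -0.54 (SE 0.17, adjusted p = 0.686), and that of mutant against wild type in mock was -0.47 (SE 0.17, adjusted p = 0.683). Rtp4, a chaperone of G-protein-coupled receptors, had 6.44, 6.90 and 6.56 in mutant NAC cells, 6.49, 6.62 and 7.05 in wild-type NAC cells, 6.95, 6.36 and 7.10 in mutant mock cells and 7.25, 7.88 and 7.09 in wild-type mock cells. Its mean was likewise highest in wild-type mock cells, with differences of -0.69 (SE 0.24, adjusted p = 0.739) for NAC in wild type, without overlap, and -0.60 (SE 0.24, adjusted p = 0.721) for the mutant in mock, with overlap. Both contrasts of each gene rest on the same 3 wild-type mock arrays.

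Ifi27, a mitochondrial and nuclear membrane protein, had 8.65, 8.68 and 8.83 in mutant NAC cells, 8.02, 8.50 and 8.35 in wild-type NAC cells, 8.86, 8.66 and 8.68 in mutant mock cells and 8.32, 8.64 and 8.95 in wild-type mock cells. Under NAC its mutant arrays lay above its wild-type arrays, at 0.43 (SE 0.17, adjusted p = 0.659), and in mock they overlapped. Epsti1, a gene of epithelial-stromal interaction, had 6.47, 6.28 and 6.30 in mutant NAC cells, 6.75, 6.60 and 6.68 in wild-type NAC cells, 6.49, 6.98 and 6.88 in mutant mock cells and 6.32, 7.09 and 6.75 in wild-type mock cells. In the mutant its NAC arrays lay below its mock arrays, at -0.43 (SE 0.18, adjusted p = 0.829). Lgals3bp, a secreted glycoprotein that binds galectin-3, had 8.89, 9.54 and 9.21 in mutant NAC cells, 9.41, 9.50 and 9.13 in wild-type NAC cells, 9.62, 9.49 and 9.58 in mutant mock cells and 9.43, 9.49 and 9.61 in wild-type mock cells. Its difference in the mutant was -0.35 (SE 0.16, adjusted p = 0.845), with overlap, and mutant NAC replicate 1 was the lowest array. Cxcl10, a chemokine for activated T cells, had 4.65, 3.96 and 3.82 in mutant NAC cells, 3.19, 4.74 and 3.86 in wild-type NAC cells, 4.23, 3.13 and 3.92 in mutant mock cells and 3.91, 4.18 and 3.39 in wild-type mock cells. Its replicates spread more within wild-type NAC cells than the means of its groups differed. Ifi35 completed the list, with a NAC difference of -0.17 over both genotypes.

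The interaction asks whether the genotype difference with NAC was unlike that in mock. No member passed, the smallest adjusted p was 0.999, and 0.0% of all genes were called. The differences of the members lay 22 times above and 24 times below 0, with a median of -0.01. At an unadjusted p under 0.05 there were 2, or 4.35% against 4.21% of all genes. They were Gbp7 at 0.67 (SE 0.26, adjusted p = 0.999) and Cmpk2 at -0.69 (SE 0.25, adjusted p = 0.999). The precision was lower here, with a 95% interval within 2-fold for 36 of 46 genes. NAC in wild type had 2 further members under an unadjusted p of 0.05 on the lower side besides the 3 named by the rule, Gbp7 and Ifitm2, and Ifitm2, named after its value was seen, had -0.33 (SE 0.14, adjusted p = 0.838).

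**Figure D5:**
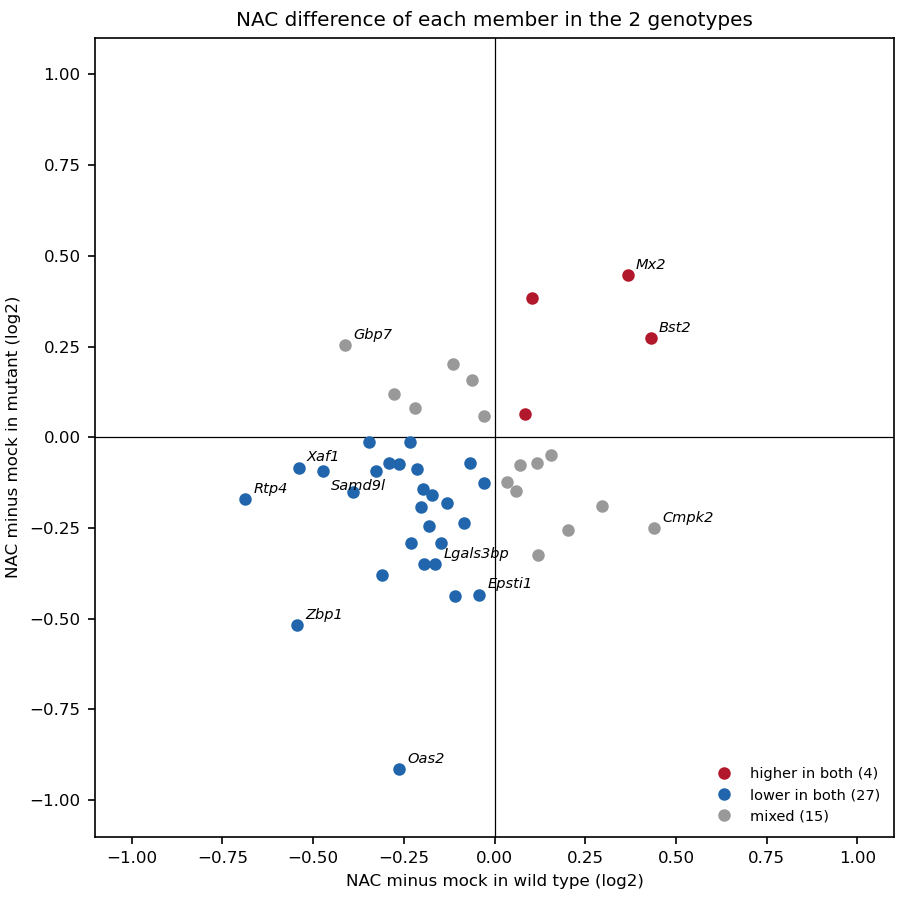
Log2 difference of NAC against mock in the mutant (vertical axis) and in wild type (horizontal axis) for each of the 46 genes. The lower left, where both differences are below 0, holds 27 genes and the upper right 4, and Gbp7 (upper left) and Cmpk2 (lower right) differ in sign between the genotypes.

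Probe sets not used in the counts gave further values. Those shared by Gbp2, Ifi203 or Dtx3l with other genes had log2 differences of -0.35, -0.32 and -0.25 for NAC against mock over both genotypes, each from a signal that cannot be assigned to 1 gene. A second probe set of Ifi35 gave -0.33 beside -0.17, and one of Lgals3bp gave -0.29 beside -0.26. Further probe sets of Sp100 gave 0.16, -0.06 and -0.02 beside 0.02, and one shared with Gm7609 gave 0.01. Those at 0.16 and -0.06 had mean signals of 1.83 and 2.23, below the median gene level. A probe set shared by Ifi204 and Ifi211 gave 0.32, against -0.16 for that of Ifi204 alone, so the 2 probe sets disagreed in sign. These are differences of means with no test.

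The members were also split by the response element in their promoter window. Of the 17 measured genes with the core in their window 14 had lower means with NAC over both genotypes, with a median of -0.10, and of 17 without it 11, with a median of -0.17. For genotype over both treatments 8 and 13 of 17 were lower. Among the genes printed above, Isg15 and Irgm1 had NAC differences of -0.10 and -0.22 over both genotypes, Ifitm3 had -0.16 and Bst2 had 0.35. The difference between genes with and without the element was not tested.

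The upstream part of the pathway was measured by separate lists. Of the receptor chains and kinases, Ifnar1 had log2 signals of 6.74, 6.70 and 6.84 in mutant NAC cells, 7.10, 6.88 and 7.30 in wild-type NAC cells, 6.75, 6.86 and 7.07 in mutant mock cells and 6.94, 6.93 and 7.17 in wild-type mock cells. It was lower in every mutant NAC array than in every wild-type NAC array, at -0.33 (SE 0.14, adjusted p = 0.668), and the difference over both treatments was -0.23 (SE 0.10, adjusted p = 0.519). Ifnar2 had 8.30, 8.83 and 8.99 in mutant NAC cells, 8.97, 8.95 and 8.87 in wild-type NAC cells, 9.01, 8.88 and 8.87 in mutant mock cells and 8.69, 8.85 and 8.91 in wild-type mock cells, with differences of -0.22 (SE 0.16, adjusted p = 0.809) with NAC and 0.10 (SE 0.16, adjusted p = 0.943) in mock. None of the 4 measured genes passed the test. Of 14 measured genes for interferon ligands, 11 lay below the median gene level in every group, and none passed. Ifna4 had a difference of 0.45 (SE 0.17, adjusted p = 0.456) for genotype over both treatments, Ifna11 had one of 0.45 for genotype with NAC and Ifna14 one of 0.74 for NAC in wild type. The ligands named here were picked by an unadjusted p under 0.05, and Ifna11, at a mean of 1.76, lay below the median gene level. The interferon-α genes are near-identical copies, so these signals are uncertain between them.

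Of the 8 brakes on the pathway none passed. The brakes and sensors named here were picked by an unadjusted p under 0.05, which 4.21% to 9.08% of all genes had, depending on the comparison. Pias3, of a family that inhibits STAT proteins, was at -0.62 (SE 0.17, adjusted p = 0.529) for genotype with NAC and -0.44 (SE 0.12, adjusted p = 0.298) over both treatments. Socs1, the feedback inhibitor of JAK kinases, was at -0.49 (SE 0.20, adjusted p = 0.667) for genotype with NAC and 0.44 (SE 0.20, adjusted p = 0.843) for NAC in wild type, with an interaction of -0.68. For NAC over both genotypes Ptpn2, Ptpn11 and Pias1 had 0.26, 0.28 and -0.26. Of 18 measured sensors and adaptors, 13 had lower means in the mutant over both treatments, against 49.0% of all genes, and none passed. Tlr7, the endosomal receptor for single-stranded RNA, had the largest difference, -1.01 (SE 0.28, adjusted p = 0.298), at -0.99 in mock and -1.03 with NAC. In mock its genotypes overlapped, and wild-type mock replicate 3 stood highest at 5.60. Its mean in mutant NAC cells, 3.05, lay below the median gene level. Tlr9 and Ddx58, the RIG-I gene, had -0.35 and -0.34 over both treatments. With NAC alone Ticam1, Adar, Irf3 and Sting1 had -0.57, -0.42, -0.37 and -0.37, and Cgas 0.40, while in mock Tlr3 had -0.39. The mean signal of Tlr3 was 2.02, below the median gene level. Ticam1 had an interaction of -0.65. For NAC, Irf8 had 0.55 over both genotypes, Cgas had 0.46 in the mutant and Tlr3 had -0.39 in wild type.

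A second list of 52 measured interferon-response genes outside the 50 was read beside the members. None passed the test. With NAC over both genotypes 35 of 52 had a lower mean (67.3%, against 50.2% of all genes), with a median of -0.08. An unadjusted p under 0.05, by which the genes named here were picked, was found for 7 of them, all lower with NAC. That is 13.5%, against 7.43% of all genes and 11.3% of genes at or above the median level. Trim34a had -0.64 (SE 0.14, adjusted p = 0.219), Slfn8 had -0.82 (SE 0.29, adjusted p = 0.526), and Sp110, Shisa5, Oas1b and Gbp9 had -0.33, -0.31, -0.30 and -0.35. Irf1, a transcription factor of the response, had -0.24. In the mutant alone Pml, the scaffold of PML bodies, and Nlrc5, a regulator of MHC class I genes, had -0.49 and -0.45, Oas1b had -0.60 and Ms4a6b had -0.52. In wild type alone Iigp1, Mov10 and Shisa5 had -0.65, -0.48 and -0.39. For genotype over both treatments 24 were higher and 28 lower in the mutant, with a median of -0.02. Of the 52, 7 had such a p (13.5%, against 9.08% of all genes and 13.1% of genes at or above the median level). Ms4a6b had 0.63 (SE 0.13, adjusted p = 0.189) and Phf11d 0.53 (SE 0.16, adjusted p = 0.339). Ifit3b was at 0.36, Shisa5 at -0.32, Irf1 at -0.27, Trim34a at -0.36 and Gbp9 at -0.37. Phf11d, Ifit3b and Gbp9 had mean signals of 2.61, 2.86 and 2.66, below the median gene level. In mock alone Iigp1 had -0.51, and with NAC alone Oas1g had 0.88 and Oas1b -0.52. For the interaction 3 of 52 had such a p (5.77%, against 4.21% of all genes), with differences of -0.58 for Pml, -0.46 for Psmb8, a subunit of the immunoproteasome, and -0.59 for Oas1b. The interactions of the 52 genes ran from -0.65 to 1.10, and the highest was that of Oas1g, 1.10 (SE 0.54, adjusted p = 0.999), named after its value was seen.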

How the data were processed

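Total RNA of LSK cells was measured on 12 arrays. The authors deposited log2 signals that, per the submitters' processing notes, come from RMA in Affymetrix Power Tools, a method of background correction, quantile normalization and summary over the probes of a set. The sources used here give no versions or genome build, and base 2 was inferred from values of 0.74 to 13.23. Of 41345 probe sets, 23521 were annotated with 1 gene symbol, 1814 with several and 16010 with none, which left 22180 genes, each read from its probe set with the highest mean, with no filter on dim genes.

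A mean per group was fitted by lmFit and eBayes of limma 3.58.1 (R 4.3.3), with Benjamini-Hochberg adjustment over all genes at 0.05. The procedure was run on simulated data with independent errors. That run checked the mean estimate of planted differences and says nothing of genes that move together in an array. Samples were grouped by the labels, and the 7 comparisons were genotype with each treatment, NAC in each genotype, their interaction, and each effect averaged over the other factor. The members, their roles and the other lists were chosen with earlier results of these data known. The rule for named genes took 15 anchors (14 were measured, Gbp2 not), up to 3 members per direction under an unadjusted p of 0.05 in each comparison of 2 groups and in the interaction, and the 5 highest and 5 lowest by mean. Same-numbered arrays of different groups did not deviate together (correlation -0.06 to 0.06 in 18 pairs, none over 0.1), so the numbers were not used as a block. Alternatives were array weights, centring, quantile normalization, trend and robust variance, leaving out dim genes or arrays, other probe set choices, a block for the replicate number, fitting only the groups compared, and a threshold of 0.10. Python 3.11.15 and matplotlib 3.10.9 drew the figures.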

Additional observations from a re-analysis of the deposited data

How the results depend on the processing

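The precision of each difference was limited by 3 arrays a group, and why few genes were called was not tested. No member was called in any of the 7 comparisons under any of the alternatives, which were 23 for comparisons of 2 groups and 22 for the interaction and the 2 averaged effects, where the smallest adjusted p of a member lay between 0.247 and 0.778 by comparison. The 646 alternative values of 30 differences of named members kept their sign, and all stayed short of the threshold. These 30 had been picked by an unadjusted p under 0.05 in the same arrays. Some alternatives, such as trend and robust variance, leave a difference as it is. The kept signs are therefore no separate support. The median over the members stayed below 0 for NAC in every alternative, at -0.20 to -0.09 in the mutant, -0.20 to -0.10 in wild type and -0.18 to -0.10 over both genotypes, with 29 to 37, 31 to 35 and 32 to 39 members lower. All alternatives refit the same arrays or most of them, so this kept sign is no separate support either. The genotype medians ran from -0.09 to 0.01 in mock, -0.13 to -0.02 with NAC and -0.10 to 0.00 over both treatments, and that of the interaction from -0.07 to 0.06, so no direction holds for genotype in mock, over both treatments or for the interaction when single arrays are left out. With 21 to 30, 24 to 32, 23 to 31 and 20 to 30 members lower, these counts stayed within 1.5 times the main ones.

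The number of all genes called changed more, and the cause was not tested. In mock it was 2, with 1 under the replicate block, 1 with only the groups compared and 0 without both arrays that stand apart. For genotype with NAC it was 0, with 2 at an adjusted p under 0.10, 2 with the filter at the median level, 4 with array weights and 1 with only the groups compared. Over both treatments it was 2, with 12 at an adjusted p under 0.10, 4 with array weights, 1 under the replicate block and 4 without both arrays that stand apart. For NAC in the mutant it was 1, with 3 at an adjusted p under 0.10, 2 with array weights, 2 after quantile normalization and 0 without both arrays; in wild type it was 2, with 1 with only the groups compared; over both genotypes it was 1, with 3 without both arrays. Leaving out 1 array at a time gave 1 to 4 genes for genotype in mock, 0 to 3 with NAC and 1 to 7 over both treatments. For NAC it gave 0 to 2 in the mutant, 1 to 5 in wild type and 1 to 4 over both genotypes, and for the interaction 0 to 2. The replicate block left the number of called members at 0 in each comparison, and 5 of 12 arrays correlated best with another array of their own number.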
